A study of Rattus norvegicus with 32 samples.

Results

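Calcium channels, calcium-cycling proteins and the calcineurin pathway were described by 39 genes, chosen because probes of the array carried their symbols in either annotation of the files. They were read by 84 of the 45598 probes and by 140 of the 58717 spots that were not controls, out of 21112 genes with a symbol. The genes were followed in the left ventricle of 32 Wistar rats aged 9 to 12 weeks, male and female, with 5 sham, 5 CLP and 6 CLP plus landiolol rats in each sex and 1 array for each rat. CLP, cecal ligation and puncture, opens the bowel into the abdomen and produces polymicrobial sepsis. Landiolol, which blocks the β1-adrenergic receptor and is cleared within minutes, was infused at 0.1 mg/kg/min from 1 h after CLP. The other rats received saline at 10 ml/kg/h, and all rats were given buprenorphine at 0.05 mg/kg before surgery. The rats were imaged at 18 h, the hearts were then perfused outside the body, and the tissue was frozen at 20 h, so every group including sham had also gone through imaging and perfusion. No antibiotic was in the infusion. The comparisons asked which transcripts of the calcium system differed between septic and sham hearts, which differed between septic hearts with and without landiolol, and whether these differences were alike in males and females.

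In a heart muscle cell, the action potential opens L-type calcium channels, and the calcium that enters releases a larger amount from the sarcoplasmic reticulum through the ryanodine receptor Ryr2. Relaxation follows when the pump SERCA2a (Atp2a2), held back by phospholamban (Pln) and sarcolipin (Sln), returns calcium to the store and the exchanger NCX1 (Slc8a1) carries the rest out of the cell. The β1-adrenergic receptor acts on this cycle through protein kinase A, and calcium bound to calmodulin activates the kinase CaMKII and the phosphatase calcineurin, whose regulators Rcan1 and Rcan2 can restrain it.

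Values below are log2 intensities after quantile normalisation within a sex, and a difference of 1 stands for a 2-fold change. A gene with several probes was reported by its brightest probe, called the reporting probe. Of the 39 genes, 15 had 1 probe and 24 had more, 34 were well above background on all 32 arrays, and none was saturated. The reporting probes of 37 genes were kept in both sexes, while those of Cacna1d and Camk2b were kept in males only. The other 45 probes were examined as well, and 13 probes passed the filter in neither sex. Brightness depends on the probe, so levels were compared between groups for 1 probe and never between genes.

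The results turned mainly on 2 probes of Rcan2 and 2 of Asph, and 2 probes of Trdn differed in sign. Their sequences are shown because each pair reads different stretches of a gene. The Rcan2 and Trdn pairs gave different values, while both Asph probes were lower in CLP. All letters are in lower case because no motif was sought. The upstream probe of Rcan2 (rn4, chr9:12718086-12718145, minus strand) is printed whole, and for the others the first 30 bases are given: the 3′ probe of Rcan2 (chr9:12623919-12623978, minus strand), the reporting probe of Asph (chr5:23496643-23496702, minus strand) and its far 3′ probe (chr5:23333692-23333751, minus strand), and the reporting probe of Trdn (chr1:24906655-24906714, minus strand) and its second probe (chr1:24610932-24610991, minus strand).
Rcan2 upstream probe: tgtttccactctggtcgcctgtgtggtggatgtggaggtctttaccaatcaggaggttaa
Rcan2 3′ probe: ttcagcagaaacttcaaacctagactgatc
Asph reporting probe: aaccactgaatgtgtttattggtgctcaat
Asph far 3′ probe: gctgtaataaaccacagctgtgagtgtaac
Trdn reporting probe: gactggatctatggcttcttctctttgcta
Trdn second probe: aaagtgaagcaggttgacattatcttcttt
The 2 probes of Rcan2 lay 94.167 kb apart on chromosome 9. The files listed 4 transcripts for each, of which 2 were shared. No other of the 45597 probes searched held 15 consecutive bases of the upstream probe, on either strand. The reporting and far 3′ probes of Asph were 162.951 kb apart and shared no listed transcript, and the same held for the 2 probes of Trdn, which were 295.723 kb apart. Exon boundaries of build rn4 were not used here, so a probe is placed by its coordinates and listed transcripts alone.

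The arrays lay on 4 slides, 2 for each sex, with every group on both slides of its sex, so that sex and slide cannot be told apart. All 5 female sham arrays were in the first row of their slides and all 6 female CLP plus landiolol arrays in the second. Between 50.3 and 67.0% of probes were well above background on an array, and the number of arrays limits the precision. Markers of ventricular muscle were well above background in every group, with a summed linear intensity between 2039410 and 2553260. Of 5 atrial markers, Bmp10 was not well above background in any group. The other 4 were kept, with a summed intensity between 75172.1 and 195908, so atrial transcripts were present in every group. For CLP vs sham, 1 of these 4 was lower past the FDR in males and 0 in females. Markers of other cells moved with CLP, and their part in the results below was not tested. Among 5 macrophage and monocyte genes, Adgre1 and Cd68 rose in both sexes, and the summed level was 3516.65 to 4862.7 in male sham and 6052.46 to 10203 in male CLP. Of 5 smooth muscle genes, Smtn fell in males, where the summed level was 22218.5 to 34391.9 in sham and 9325.87 to 15421.2 in CLP. Emcn fell in both sexes among 5 endothelial genes, and Col1a1, Col1a2 and Col3a1 fell in males among 5 fibroblast genes. In tissue RNA, fewer cells of a type and less RNA per cell cannot be told apart.

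The largest response among the 39 genes came from the upstream probe of Rcan2, a regulator that binds and inhibits calcineurin. The transcript it reads rose 5.49-fold in male and 4.41-fold in female CLP hearts and was 4.38-fold lower in males and 2.9-fold lower in females under landiolol than in CLP alone. In males, the probe read 5.20, 4.95, 5.06, 4.64 and 5.11 in sham, 8.66, 6.45, 7.21, 8.54 and 6.39 in CLP, and 4.91 to 5.74 (median 5.33) in CLP plus landiolol. In females, it read 4.81, 4.93, 4.82, 5.65 and 4.59 in sham, 6.67, 6.44, 7.38, 7.50 and 7.53 in CLP, and 5.17 to 6.05 (median 5.59) in CLP plus landiolol. Every CLP array was above every sham array and above every CLP plus landiolol array of its sex. CLP hearts exceeded sham by 2.46 (SE 0.38, adjusted p = 0.00049) in males and by 2.14 (SE 0.25, adjusted p = 0.00011) in females with limma. The difference of CLP plus landiolol from CLP was -2.13 (SE 0.37, adjusted p = 0.0089) in males and -1.54 (SE 0.24, adjusted p = 0.032) in females. Against sham, CLP plus landiolol hearts differed by 0.33 (SE 0.37, adjusted p = 0.63) in males and 0.61 (SE 0.24, adjusted p = 0.11) in females, neither past the FDR. No other gene of the 39 passed the FDR in all 4 of the comparisons of CLP with sham and of CLP plus landiolol with CLP, by any of its probes.

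**Figure D1:**
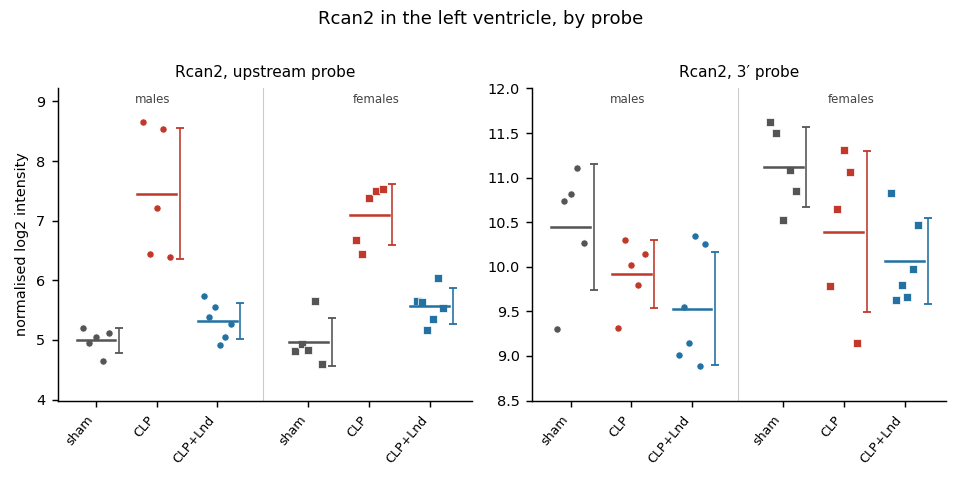
Normalised log2 intensity (y axis) of the 2 Rcan2 probes in each group of males (circles) and females (squares). Each point is 1 rat, lines are means and bars are SD. With the upstream probe the CLP rats lie above all sham and all CLP plus landiolol rats of their sex, and with the 3′ probe the groups overlap.

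The rise was present on each slide taken alone. CLP minus sham was 2.36 and 2.53 on the 2 male slides and 2.23 and 1.90 on the female slides. CLP plus landiolol minus CLP was -1.88 and -2.39 on the male and -1.35 and -1.68 on the female slides. The sexes were not shown to differ in either comparison, with an interaction of 0.33 (SE 0.47) for CLP and of -0.60 (SE 0.45) for landiolol. In females the landiolol call was close to its limit: adjusted p was 0.058 with a term for the slide row, 0.080 without the filter on dim probes, 0.10 when only the groups compared were fitted, and between 0.055 and 0.11 without any 1 of female sham replicate 3, CLP replicates 3 and 4 and CLP plus landiolol replicates 1, 2, 4, 5 and 6. SAM did not call it, but SAM called only 1 probe of the whole array in that comparison. With normexp background correction all 4 differences passed at a smaller size, 1.34 and 1.01 for CLP and -1.19 and -0.83 for landiolol in males and females. The macrophage gene Adgre1 was higher than sham by 2.79 in CLP and by 3.29 in CLP plus landiolol in males, and by 2.79 and 3.40 in females. It is 1 of 5 macrophage and monocyte genes, whose median difference of CLP from sham was 0.85 in males and 0.47 in females. For CLP plus landiolol vs CLP their median was -0.07 and 0.18. The part of these cells in the Rcan2 value was not tested.

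The 3′ probe of Rcan2, its reporting probe, did not rise. It read 9.30, 10.73, 10.82, 11.10 and 10.26 in sham, 9.32, 10.30, 10.02, 9.80 and 10.15 in CLP, and 8.88 to 10.34 (median 9.35) in CLP plus landiolol in males. Female values were 11.62, 11.50, 10.53, 11.09 and 10.85 in sham, 9.79, 10.65, 11.32, 11.06 and 9.15 in CLP, and 9.63 to 10.82 (median 9.89) in CLP plus landiolol. The groups overlapped throughout. The difference of CLP from sham was -0.53 (SE 0.35, adjusted p = 0.36) in males and -0.73 (SE 0.37, adjusted p = 0.26) in females, and CLP plus landiolol minus CLP was -0.39 (SE 0.34, adjusted p = 0.61) and -0.33 (SE 0.36, adjusted p = 0.84). CLP plus landiolol minus sham was -0.91 (SE 0.34, adjusted p = 0.10) in males and -1.06 (SE 0.36, adjusted p = 0.063) in females, neither past the FDR of 1% with limma, and SAM called the female difference. The upstream probe was listed for a predicted transcript and not for the RefSeq mRNA by which the 3′ probe is named, and the male files named it by a transcript identifier where the female files gave Rcan2.

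By their reporting probes, 3 of 39 genes in males and 1 of 37 in females passed the FDR of 1% for CLP vs sham, all of them lower. Among all named genes, 9.37% passed in males and 4.32% in females, and 5.04 and 2.12% were lower. In either direction the calcium genes were thus not called more often than the array at large. Counted for lower values alone, their share was above that of all genes in each sex, on 3 genes and 1 gene. Counting any probe of a gene, a choice made after seeing the data, 4 genes in males (10.4% of all genes) and 2 in females (4.79% of all genes) passed. The median difference was -0.15 in males and -0.17 in females, against -0.02 in each sex over all genes, and 27 of 39 and 24 of 37 genes lay below 0 (69.2 and 64.9%, against 52.1 and 52.3% of all genes). CLP and sham arrays did not overlap for 4 of 39 genes in males and 3 of 37 in females, where 14.2 and 9.82% of all genes did not. At an unadjusted p under 0.05 there were 14 of 39 genes in males and 9 of 37 in females (35.9 and 24.3%, against 31.5 and 25.5% of all genes). The genes past the FDR were Asph, Hrc and Atp2a3, and SAM called 4 in males (Asph, Atp2a3, Camk2a and Casq2) and 2 in females (Asph and Hrc).

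**Figure D2:**
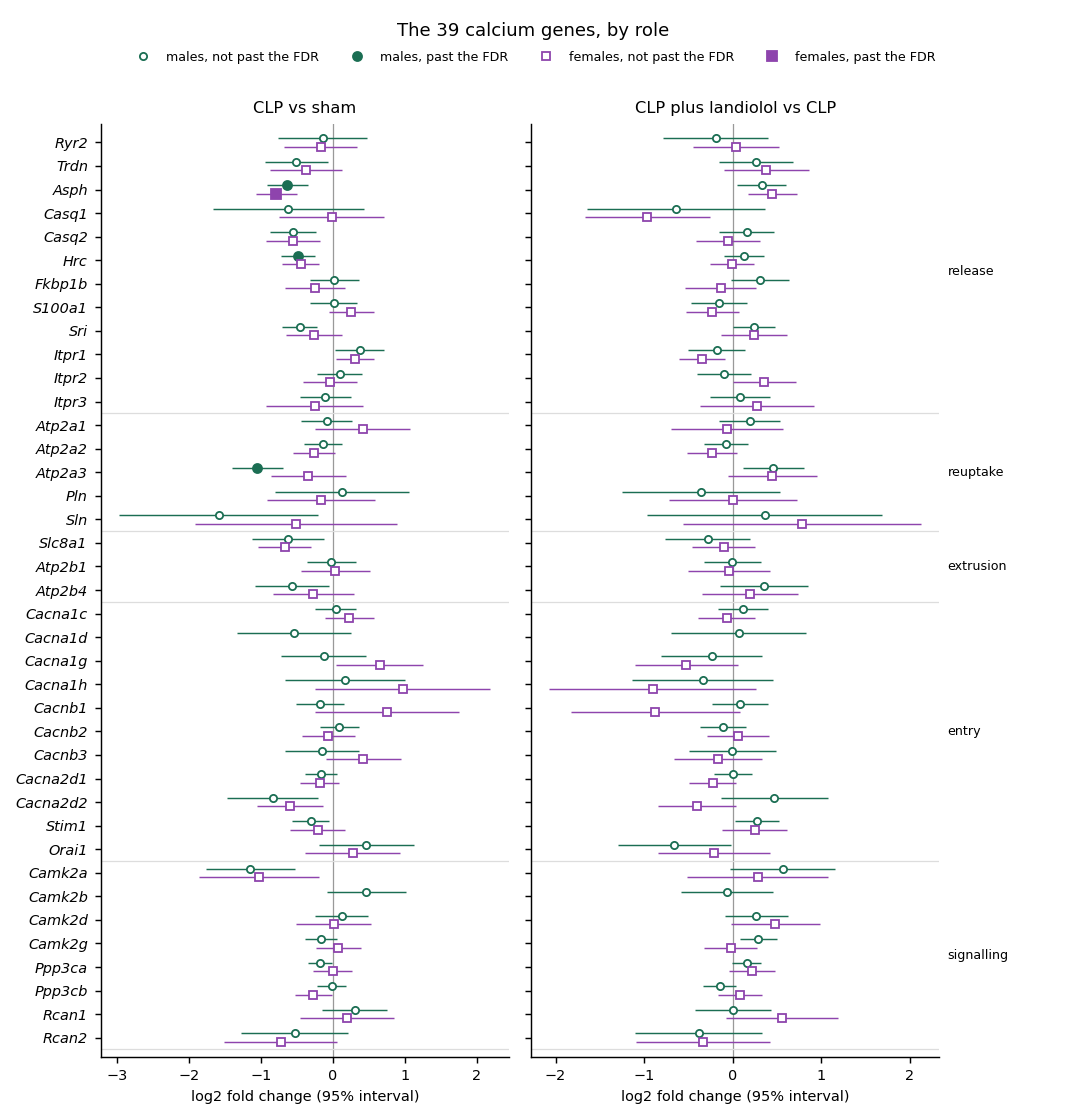
Log2 fold change (x axes) with its 95% interval for the 39 genes, ordered by role, for CLP vs sham on the left and CLP plus landiolol vs CLP on the right, in males (circles) and females (squares). Filled symbols passed the FDR. They are Asph, Hrc and Atp2a3 in males and Asph in females, all to the left of 0 for CLP, and none is filled for landiolol. Each gene is shown by its reporting probe, and Camk2a was not well above background in male CLP hearts.

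Of the 12 genes of calcium release and storage, 2 fell past the FDR in males and 1 in females, where 5.04 and 2.12% of all genes did. Their median difference was -0.30 in males and -0.25 in females, against -0.02 in each sex over all genes. With 12 genes, these counts do not set the role apart. Asph codes for a hydroxylase and, from the same locus, for junctin and junctate, and junctin anchors calsequestrin beside the ryanodine receptor. In males, Asph read 12.61, 12.77, 12.29, 12.57 and 12.60 in sham, 12.29, 11.92, 11.56, 11.96 and 11.92 in CLP, and 11.97 to 12.39 (median 12.32) in CLP plus landiolol. In females, it read 12.64, 12.72, 12.31, 12.78 and 12.55 in sham, 11.79, 11.82, 11.72, 11.69 and 12.06 in CLP, and 11.99 to 12.48 (median 12.31) in CLP plus landiolol. The female CLP arrays all lay below the sham arrays, while in males the highest CLP array lay at the lowest sham array, and the CLP plus landiolol arrays overlapped both other groups in each sex. Asph fell by 1.55-fold in males, -0.64 (SE 0.13, adjusted p = 0.0043), and by 1.72-fold in females, -0.79 (SE 0.14, adjusted p = 0.0019). CLP plus landiolol minus CLP was 0.33 (SE 0.13, adjusted p = 0.24) and 0.45 (SE 0.13, adjusted p = 0.22), which did not pass. The far 3′ probe of Asph passed too, with -0.52 (SE 0.12, adjusted p = 0.0083) in males and -0.73 (SE 0.14, adjusted p = 0.0041) in females, whereas a neighbouring probe read -0.24 (SE 0.12, adjusted p = 0.22) and -0.16 (SE 0.17, adjusted p = 0.61). Without 1 array, the far 3′ probe lost its male call in 12 of 16 fits, all but those without sham replicate 5, CLP replicate 5 and CLP plus landiolol replicates 5 and 6 (highest adjusted p = 0.025), and its female call in 5, those without sham replicates 1, 2 and 3 and CLP replicates 2 and 4 (highest adjusted p = 0.012). Of 14 other settings, 5 lost its male call and 2 its female call. The male call of the reporting probe was lost when only the groups compared were fitted (adjusted p = 0.018) and in 7 of the 16 fits that left out 1 array, with a highest adjusted p of 0.013, those without male sham replicates 2, 4 and 5 and male CLP replicates 2, 3, 4 and 5.

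Hrc, the histidine-rich calcium-binding protein of the reticulum, had the narrowest spread of the called genes. Its male values were 14.91, 15.09, 15.12, 15.15 and 15.25 in sham, 14.80, 14.68, 14.81, 14.37 and 14.44 in CLP, and 14.58 to 14.85 (median 14.76) in CLP plus landiolol. Female values were 15.20, 14.94, 15.10, 15.07 and 15.28 in sham, 14.61, 14.71, 14.73, 14.81 and 14.51 in CLP, and 14.30 to 14.79 (median 14.72) in CLP plus landiolol. In each sex the sham arrays lay above all CLP and all CLP plus landiolol arrays. CLP differed from sham for Hrc by -0.48 (SE 0.11, adjusted p = 0.0068) in males, which passed, and by -0.45 (SE 0.12, adjusted p = 0.029) in females, which did not. CLP plus landiolol differed from CLP by 0.13 (SE 0.10, adjusted p = 0.59) and -0.01 (SE 0.12, adjusted p = 0.99), and from sham by -0.36 (SE 0.10, adjusted p = 0.042) and -0.46 (SE 0.12, adjusted p = 0.017). The male call was lost in 9 of 16 fits without 1 array (male sham replicates 2 to 5, CLP replicates 2, 4 and 5 and CLP plus landiolol replicates 2 and 3), with SAM, under scaling to the 75th percentile (adjusted p = 0.020) and when only the groups compared were fitted (adjusted p = 0.030).

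**Figure D3:**
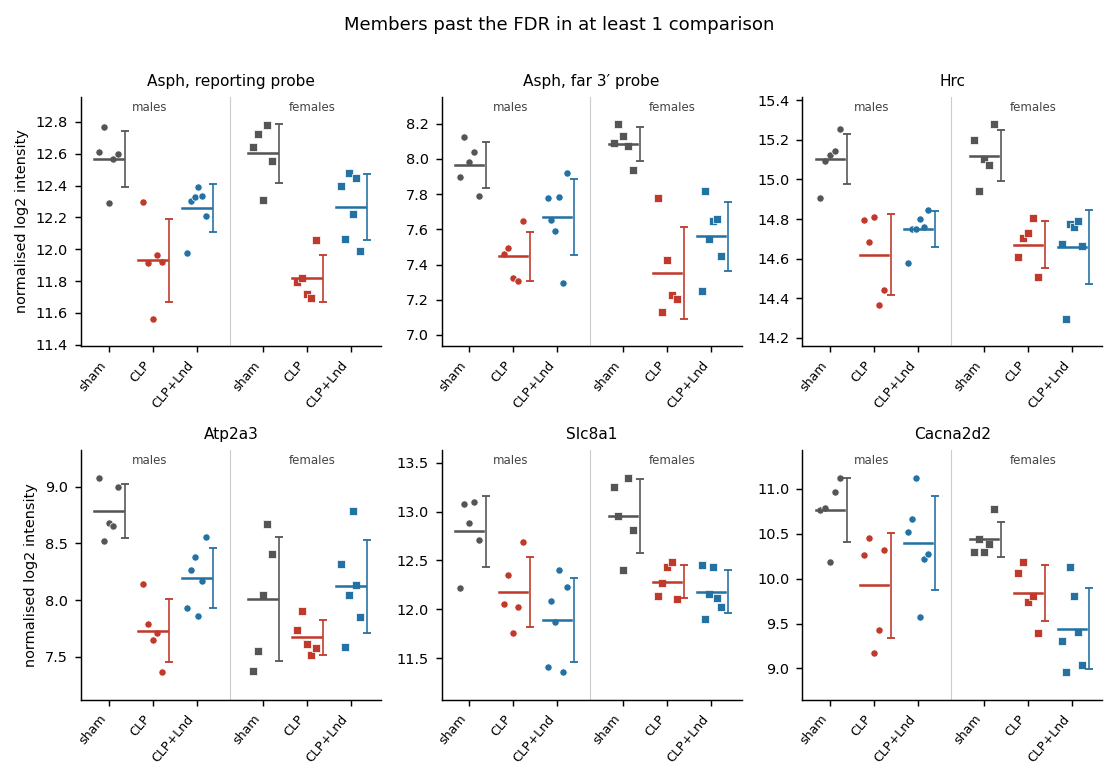
Normalised log2 intensity (y axes) of 2 Asph probes, Hrc, Atp2a3, Slc8a1 and Cacna2d2, the genes whose reporting probe passed the FDR in at least 1 comparison. Points are rats, lines are means and bars are SD. The CLP and CLP plus landiolol rats lie below the sham rats in both sexes for Hrc, and in females for Cacna2d2.

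Casq2, the calcium buffer of the cardiac store, had nearly the same difference in each sex, -0.55 (SE 0.15, adjusted p = 0.022) in males and -0.55 (SE 0.18, adjusted p = 0.064) in females, short of 1%, although SAM called it in males. In males its CLP arrays, 14.92 to 15.21, lay below its sham arrays, 15.37 to 15.79. Sri, sorcin, which binds the ryanodine receptor, differed by -0.46 (SE 0.12, adjusted p = 0.012) in males and -0.26 (SE 0.18, adjusted p = 0.45) in females. The release channel Ryr2 itself read 12.56, 13.78, 13.68, 13.87 and 13.17 in sham, 12.90, 13.36, 13.35, 13.10 and 13.64 in CLP, and 12.48 to 13.80 (median 12.94) in CLP plus landiolol in males. In females, Ryr2 read 14.16, 14.13, 13.18, 13.79 and 13.38 in sham, 13.27, 13.68, 14.11, 13.88 and 12.87 in CLP, and 13.39 to 13.89 (median 13.59) in CLP plus landiolol. CLP minus sham for Ryr2 was -0.14 (95% interval -0.76 to 0.47) in males and -0.17 (95% interval -0.67 to 0.34) in females, with overlapping groups. The remaining genes of this role did not pass in either sex: the skeletal calsequestrin Casq1 was at -0.62 and -0.02, calstabin-2 (Fkbp1b) at 0.02 and -0.25, S100a1, which binds the ryanodine receptor, at 0.01 and 0.25, and the inositol trisphosphate receptors Itpr1, Itpr2 and Itpr3 at 0.38, 0.09 and -0.11 in males and 0.31, -0.04 and -0.25 in females. Of these, Itpr1 lay above 0 in each sex, with intervals of 0.03 to 0.72 and 0.04 to 0.58.

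The probes of triadin (Trdn), which links calsequestrin to the ryanodine receptor, pointed in opposite directions in males. The reporting probe was at -0.51 (SE 0.21, adjusted p = 0.11). The second probe read 4.54, 5.04, 5.21, 4.46 and 4.95 in male sham and 5.67, 5.89, 6.13, 6.14 and 6.10 in male CLP hearts, without overlap, a difference of 1.15 (SE 0.28, adjusted p = 0.011) that stood just outside the FDR of 1%. A probe 391.388 kb from the reporting one was at 0.77 (SE 0.26, adjusted p = 0.059). In females the 3 probes read -0.37, 0.53 and 0.56, with adjusted p of 0.39, 0.61 and 0.32.

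Of the 5 genes of reuptake, 1 fell past the FDR in males, Atp2a3, where 5.04% of all genes did. In females none passed with limma or SAM, where 2.12% of all genes were lower past the FDR with limma. None had an unadjusted p under 0.05 in females, against 25.5% of all genes. Atp2a3 codes for SERCA3, a pump known mainly from endothelial, blood and other non-muscle cells. Male values were 9.08, 8.52, 8.68, 8.65 and 8.996 in sham, 8.14, 7.79, 7.65, 7.71 and 7.36 in CLP, and 7.86 to 8.56 (median 8.21) in CLP plus landiolol, with all CLP arrays below all sham arrays. In females, Atp2a3 read 7.38, 7.56, 8.04, 8.67 and 8.41 in sham, 7.73, 7.91, 7.62, 7.52 and 7.58 in CLP, and 7.58 to 8.78 (median 8.09) in CLP plus landiolol, and the groups overlapped. In the fit, CLP minus sham was -1.05 (SE 0.17, adjusted p = 0.0006) in males and -0.34 (SE 0.25, adjusted p = 0.46) in females, and CLP plus landiolol minus CLP was 0.46 (SE 0.16, adjusted p = 0.18) and 0.45 (SE 0.24, adjusted p = 0.59). The interaction with sex was -0.70 (SE 0.30, limma's unadjusted p = 0.027, adjusted p = 0.9999), so a difference between the sexes was not shown. The male call was kept in all 16 fits that left out 1 array. Of 5 endothelial markers 1 fell in each sex, Emcn, and their summed linear intensity was 34495.6 to 50865.1 in male sham and 39644.4 to 57069.7 in male CLP, 24815.4 to 43566.5 in female sham and 30149.2 to 62480.4 in female CLP. Their part in the value of Atp2a3 was not tested.

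The cardiac pump Atp2a2 (SERCA2) and its inhibitor Pln did not pass in any comparison with limma, while SAM called Atp2a2 for CLP plus landiolol vs sham in females. Atp2a2 read 17.04, 17.35, 17.29, 17.42 and 17.15 in sham, 16.91, 17.19, 17.19, 17.16 and 17.12 in CLP, and 16.76 to 17.37 (median 17.04) in CLP plus landiolol in males. Female values of Atp2a2 were 17.43, 17.42, 17.12, 17.37 and 17.31 in sham, 16.99, 17.15, 17.25, 17.35 and 16.61 in CLP, and 16.73 to 17.06 (median 16.78) in CLP plus landiolol. For this probe, CLP differed from sham by -0.14 (95% interval -0.40 to 0.12) in males and -0.26 (95% interval -0.56 to 0.03) in females. Pln had wide spread, with 15.32, 16.99, 16.86, 17.24 and 16.10 in sham, 15.85, 16.69, 17.11, 16.61 and 16.89 in CLP, and 14.86 to 17.23 (median 16.36) in CLP plus landiolol in males. Its female values were 17.37, 17.27, 16.21, 17.25 and 16.75 in sham, 16.40, 17.11, 17.43, 17.48 and 15.59 in CLP, and 16.34 to 17.49 (median 16.63) in CLP plus landiolol. Intervals for CLP minus sham of Pln ran from -0.80 to 1.06 in males and from -0.92 to 0.59 in females, and differences within these ranges were not detectable with these arrays.

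A further probe of Atp2a2, 3.082 kb away, is listed for other transcripts than the reporting probe and took another course. In males it read 13.93, 14.33, 13.91, 14.43 and 14.15 in sham, 14.37, 14.47, 14.42, 14.58 and 14.42 in CLP, and 13.86 to 14.29 (median 14.01) in CLP plus landiolol. Its female values were 14.27, 14.56, 14.05, 14.52 and 14.46 in sham, 14.37, 14.30, 14.73, 14.9999 and 14.17 in CLP, and 13.86 to 14.27 (median 14.19) in CLP plus landiolol. The male CLP arrays lay above all male CLP plus landiolol arrays, yet CLP plus landiolol minus CLP, -0.40 (SE 0.12, adjusted p = 0.12), did not pass, nor did the female value of -0.37 (SE 0.16, adjusted p = 0.47). Against sham, CLP read 0.31 (SE 0.12, adjusted p = 0.11) in males and 0.14 (SE 0.16, adjusted p = 0.67) in females.

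Sln, sarcolipin, a small inhibitor of SERCA that is abundant in rodent atria, varied most of the 39 genes. It read 7.38, 8.99, 7.23, 7.27 and 8.70 in sham, 4.55, 7.78, 6.21, 5.51 and 7.59 in CLP, and 5.35 to 8.05 (median 6.55) in CLP plus landiolol in males. Female values of Sln were 6.84, 7.04, 6.83, 9.16 and 5.13 in sham, 6.07, 6.72, 6.10, 6.07 and 7.50 in CLP, and 5.72 to 9.15 (median 7.13) in CLP plus landiolol. Sln differed between CLP and sham by -1.59 (SE 0.65, adjusted p = 0.11) in males and -0.51 (SE 0.66, adjusted p = 0.71) in females. The pooled SD of Sln within groups was 1.12 in males and 1.15 in females, where the median of the 39 genes was 0.26 and 0.39 and that of all genes 0.31 and 0.34. Atp2a1, the pump of fast skeletal muscle, was at -0.09 and 0.41.

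None of the 3 genes of extrusion passed for CLP vs sham with limma or SAM, while 2 in males and 1 in females had an unadjusted p under 0.05 (31.5 and 25.5% of all genes). Of these, Slc8a1 (NCX1) had lower means in septic than in sham hearts of both sexes. In males, Slc8a1 read 12.22, 13.08, 12.89, 13.10 and 12.71 in sham, 12.06, 12.35, 11.75, 12.02 and 12.69 in CLP, and 11.35 to 12.40 (median 11.98) in CLP plus landiolol. In females, Slc8a1 read 13.25, 12.95, 12.40, 13.35 and 12.81 in sham, 12.13, 12.27, 12.43, 12.48 and 12.10 in CLP, and 11.90 to 12.45 (median 12.14) in CLP plus landiolol. CLP minus sham was -0.62 (SE 0.24, adjusted p = 0.086) and -0.67 (SE 0.18, adjusted p = 0.024). CLP plus landiolol minus sham was -0.91 (SE 0.23, adjusted p = 0.018) in males and -0.77 (SE 0.17, adjusted p = 0.0068) in females, and the female value passed. A dim probe of Slc8a1 that was kept in males only gave -0.999 (SE 0.28, adjusted p = 0.023) for CLP and was well above background on 1 of the 5 male CLP arrays. The plasma membrane pumps Atp2b1 and Atp2b4 were at -0.02 and -0.56 in males and 0.04 and -0.27 in females, none past the FDR.

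None of the genes of calcium entry passed for CLP vs sham with limma, while 2 of 11 in males and 2 of 10 in females had an unadjusted p under 0.05 (18.2 and 20.0%, below the 31.5 and 25.5% of all genes). SAM called none of them either. Cacna1c, the pore of the cardiac L-type channel, read 11.53, 11.21, 11.17, 11.58 and 11.44 in sham, 11.87, 11.45, 11.31, 11.33 and 11.15 in CLP, and 11.40 to 11.73 (median 11.53) in CLP plus landiolol in males. In females, Cacna1c read 11.74, 11.49, 11.69, 11.74 and 11.75 in sham, 11.54, 12.08, 12.002, 11.96 and 11.995 in CLP, and 11.33 to 12.17 (median 11.90) in CLP plus landiolol. CLP minus sham was 0.04 (95% interval -0.25 to 0.33) in males and 0.23 (95% interval -0.10 to 0.57) in females. A second probe of Cacna1c was at -0.81 (SE 0.20, adjusted p = 0.054) for CLP plus landiolol minus CLP in males, just short of the FDR of 5%, where the reporting probe was at 0.12. In females these were -0.42 and -0.07.

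Cacna2d2, an α2δ subunit that helps to place channels in the membrane, had lower means in CLP than in sham hearts of both sexes. In males, it read 10.76, 10.78, 10.19, 10.97 and 11.12 in sham, 10.27, 10.45, 9.17, 9.43 and 10.32 in CLP, and 9.57 to 11.13 (median 10.40) in CLP plus landiolol. Female values were 10.29, 10.44, 10.30, 10.38 and 10.77 in sham, 10.07, 10.19, 9.74, 9.80 and 9.40 in CLP, and 8.95 to 10.13 (median 9.35) in CLP plus landiolol, with all sham arrays above all CLP and all CLP plus landiolol arrays. For Cacna2d2, CLP minus sham was -0.84 (SE 0.30, adjusted p = 0.068) in males and -0.60 (SE 0.22, adjusted p = 0.098) in females. Against sham, CLP plus landiolol was at -0.37 (SE 0.28, adjusted p = 0.46) in males and fell by 0.998 (SE 0.21, adjusted p = 0.005) on the log2 scale in females. The T-type channels Cacna1g and Cacna1h were at -0.13 and 0.17 in males and at 0.65 and 0.97 in females. In the female CLP group Cacna1h ranged from 7.28 to 10.79. The β subunits Cacnb1, Cacnb2 and Cacnb3 were at -0.18, 0.09 and -0.15 in males and 0.76, -0.06 and 0.43 in females, and Cacna2d1 at -0.17 and -0.18. The store sensor Stim1 and its channel Orai1 differed in sign, at -0.31 and 0.47 in males and -0.21 and 0.28 in females. Cacna1d, the L-type channel of pacemaker cells, was well above background on 4 of 5 male sham, 1 of 5 male CLP and 2 of 6 male CLP plus landiolol arrays and on no female array, and CLP minus sham was -0.54 (SE 0.37, adjusted p = 0.38) in males. Cacna1d passed the filter through the male sham group alone, so a fall from sham is not independent of the filter.

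None of the 8 signalling genes in males and 7 in females passed with limma by the reporting probe, while 2 of 8 in males and 2 of 7 in females had an unadjusted p under 0.05 (31.5 and 25.5% of all genes) and SAM called 1 in males, Camk2a. The catalytic subunits of calcineurin and the main cardiac CaMKII overlapped between CLP and sham. Ppp3ca read 10.84, 10.90, 10.72, 10.75 and 10.79 in sham, 10.72, 10.67, 10.56, 10.56 and 10.59 in CLP, and 10.72 to 10.83 (median 10.79) in CLP plus landiolol in males. Female values of Ppp3ca were 10.51, 10.85, 10.52, 10.55 and 10.73 in sham, 10.45, 10.497, 10.70, 10.59 and 10.91 in CLP, and 10.67 to 11.07 (median 10.82) in CLP plus landiolol. For Ppp3ca, CLP minus sham was -0.18 (95% interval -0.35 to -0.01) and -0.0019 (95% interval -0.27 to 0.27) in males and females. Ppp3cb read 9.04, 9.33, 9.37, 9.18 and 9.36 in sham, 9.20, 9.37, 9.27, 9.12 and 9.23 in CLP, and 9.01 to 9.19 (median 9.09) in CLP plus landiolol in males. For Ppp3cb, females gave 9.58, 9.43, 9.55, 9.48 and 9.64 in sham, 9.52, 8.99, 9.21, 9.09 and 9.50 in CLP, and 9.21 to 9.46 (median 9.34) in CLP plus landiolol. Its CLP minus sham was -0.02 (95% interval -0.21 to 0.18) and -0.27 (95% interval -0.53 to -0.01). These intervals leave differences of more than 0.6 on the log2 scale outside for both catalytic subunits, in either direction.

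Rcan1, which calcineurin itself can induce through NFAT, read 15.07, 15.88, 15.37, 15.87 and 15.12 in sham, 15.30, 15.62, 15.83, 16.32 and 15.74 in CLP, and 15.41 to 16.14 (median 15.80) in CLP plus landiolol in males. In females, Rcan1 read 14.32, 15.86, 15.22, 15.27 and 15.56 in sham, 15.39, 14.74, 15.90, 14.80 and 16.38 in CLP, and 15.69 to 16.35 (median 16.01) in CLP plus landiolol. Rcan1 differed between CLP and sham by 0.30 (95% interval -0.15 to 0.75) in males and 0.20 (95% interval -0.46 to 0.86) in females. The groups overlapped, unlike those of the upstream Rcan2 probe. Camk2d, the main CaMKII gene of the heart, read 8.74, 8.02, 8.21, 8.41 and 8.51 in sham, 8.58, 8.27, 8.40, 8.57 and 8.68 in CLP, and 8.36 to 9.25 (median 8.77) in CLP plus landiolol in males. In females, Camk2d read 8.85, 8.30, 8.57, 8.90 and 8.82 in sham, 8.62, 8.24, 8.29, 8.67 and 9.69 in CLP, and 8.70 to 9.56 (median 9.16) in CLP plus landiolol. Its CLP minus sham was 0.12 (95% interval -0.24 to 0.49) and 0.01 (95% interval -0.51 to 0.53). Camk2g was at -0.17 and 0.08.

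Camk2a, a CaMKII isoform best known from neurons, was dim. It was well above background on 4 of 5 male sham arrays, on none of 5 male CLP arrays and on 3 of 6 male CLP plus landiolol arrays. Male CLP hearts give only a bound. On the processed intensity Camk2a was lower in male CLP than in male sham hearts by a bound of 2.01-fold (limma adjusted p = 0.014, short of the FDR). CLP plus landiolol was above CLP by a bound of 1.35-fold, which did not pass (adjusted p = 0.36). In each sex Camk2a passed the filter through the sham group alone, so a fall from sham is not independent of the filter. In females it was well above background on 4, 2 and 2 arrays of sham, CLP and CLP plus landiolol, with CLP minus sham at -1.03 (SE 0.39, adjusted p = 0.12). The nerve marker S100b fell in male CLP hearts, and its part in the value of Camk2a was not tested. Camk2b, tested in males only, was at 0.47 (SE 0.26, adjusted p = 0.25). It was well above background on 3 male sham, 4 male CLP and 4 male CLP plus landiolol arrays. The CLP group alone took it past the filter, so a rise from sham is not independent of the filter.

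**Figure D4:**
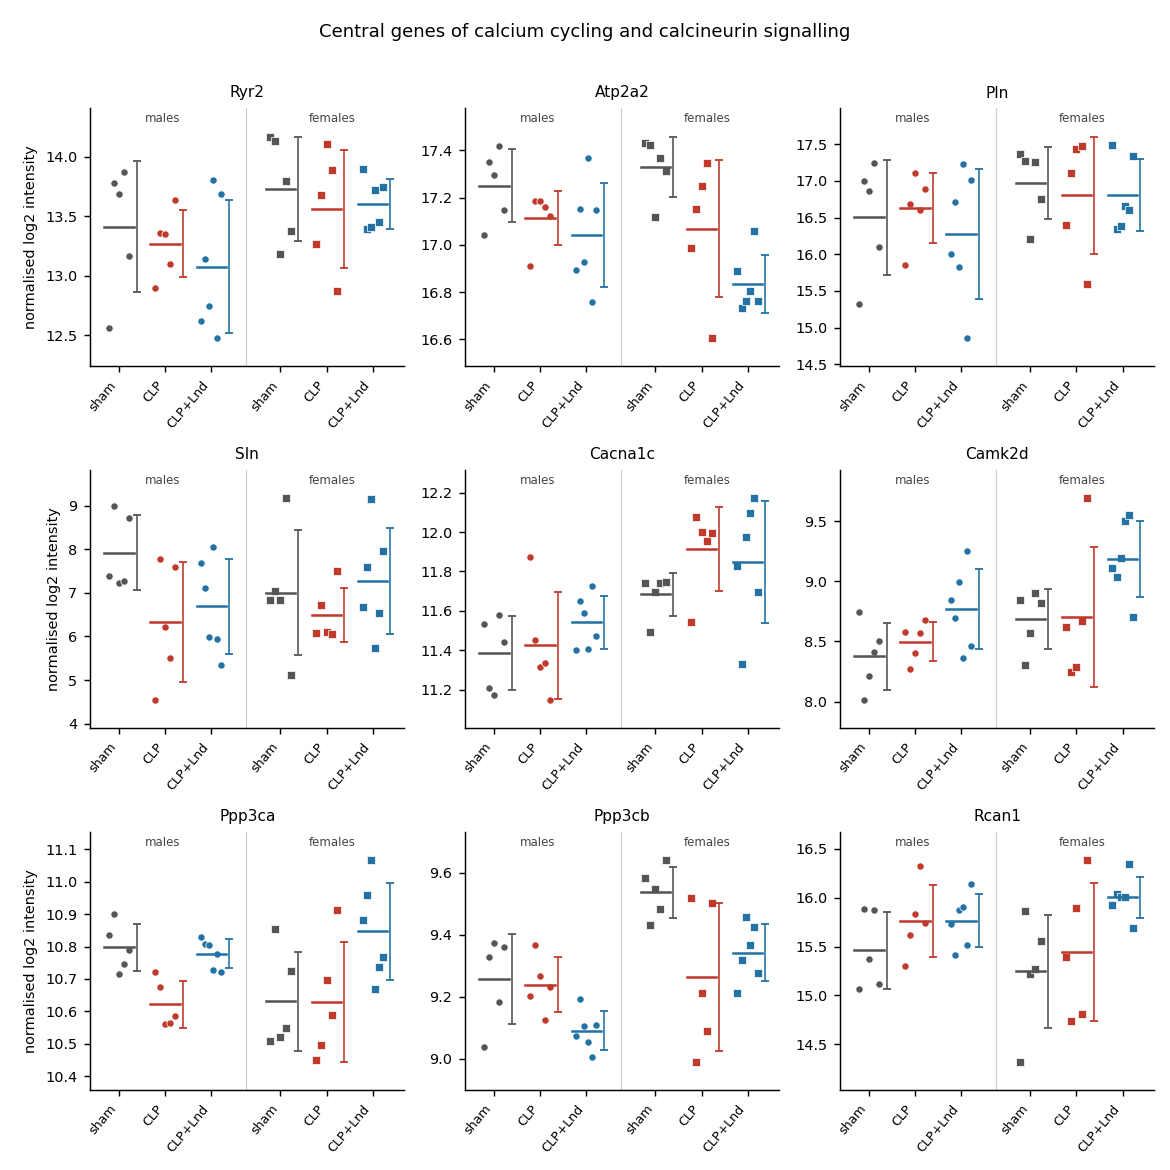
Normalised log2 intensity (y axes, a scale for each gene) of the genes at the centre of the calcium cycle and of calcineurin signalling. Points are rats (circles male, squares female), lines are means and bars are SD. CLP overlaps sham in every panel, and single rats with low Ryr2, Atp2a2 and Pln stand apart in several groups.

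Under landiolol, no gene of the 39 passed the FDR of 5% by its reporting probe in limma, in males or in females, where 1.82 and 0.108% of all genes did. At an unadjusted p under 0.05 there were 6 of 39 genes in males and 4 of 37 in females (15.4 and 10.8%, against 16.4 and 9.70% of all genes). SAM called none, where it called 912 probes of the array in males and only 1 in females. Counting any probe, Rcan2 alone passed in each sex, where 2.13 and 0.144% of all genes did. The median difference was 0.07 in males and -0.02 in females, against 0.01 and 0.03 over all genes. Single genes ranged from -0.66 (Orai1) to 0.57 (Camk2a) in males and from -0.96 (Casq1) to 0.78 (Sln) in females. For the main carriers of the cycle the 95% intervals of CLP plus landiolol minus CLP in males and females were -0.78 to 0.40 and -0.45 to 0.52 for Ryr2, -0.32 to 0.18 and -0.52 to 0.05 for Atp2a2, and -0.76 to 0.20 and -0.46 to 0.25 for Slc8a1. The other central genes read -0.35 (95% interval -1.25 to 0.54) and -0.00064 (95% interval -0.72 to 0.72) for Pln, 0.27 (95% interval -0.08 to 0.62) and 0.48 (95% interval -0.02 to 0.98) for Camk2d, 0.16 (95% interval -0.01 to 0.32) and 0.22 (95% interval -0.04 to 0.47) for Ppp3ca, and -0.00092 (95% interval -0.43 to 0.43) and 0.56 (95% interval -0.07 to 1.19) for Rcan1.

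CLP plus landiolol hearts were also set against sham, at an FDR of 1%. In males no gene of the 39 passed in limma (5.05% of all genes), 8 had an unadjusted p under 0.05 (20.5%, below the 26.7% of all genes), and SAM called 1, Slc8a1. In females Slc8a1 and Cacna2d2 passed, both lower, where 6.16% of all genes passed and 2.64% were lower. SAM called 4 in females, these and Atp2a2 and the 3′ probe of Rcan2. All female sham arrays lay in 1 row of the slides and all female CLP plus landiolol arrays in the other, and with the row as a term neither gene passed (adjusted p = 0.41 for Slc8a1 and 0.65 for Cacna2d2), so row and group cannot be told apart here. Atp2a2 read lower on all 6 female CLP plus landiolol than on all 5 female sham arrays, -0.50 (SE 0.13, adjusted p = 0.023), short of 1% with limma, and it passed without female CLP replicate 5. The call of Slc8a1 was lost in 8 and that of Cacna2d2 in 7 of the 16 fits without 1 array. Both were lost without female sham replicates 2, 4 or 5 or CLP plus landiolol replicates 2, 5 or 6, Slc8a1 also without sham replicate 1 or CLP plus landiolol replicate 3, and Cacna2d2 without CLP plus landiolol replicate 1.

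The sexes were compared by an interaction term. No gene of the 39 passed an FDR of 5% for CLP or for landiolol with limma, as 0% of the 14290 genes tested did. At an unadjusted p under 0.05 there was 1 gene for CLP, Atp2a3, and there were 2 for landiolol, Itpr2 (-0.46, male minus female) and Cacna2d2 (0.87). These are 2.56 and 5.13% of the 39 genes, near the 3.69 and 4.65% of all genes. Across the 37 genes measured in each sex, the male and female differences of CLP from sham had Pearson's r = 0.65 and the same sign for 27 genes (73.0%), while r was 0.81 and the share 78.7% over all genes. For CLP plus landiolol vs CLP, r was 0.56 with 24 genes of the same sign (64.9%), against 0.45 and 64.7%. Genes within a sex share arrays and are not independent, and these values describe the list only.

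Several members had their lowest value on the same rat. Chosen after their values were seen, Ryr2, Atp2a2, Pln and the 3′ probe of Rcan2 were lowest on 1 common array in each of the 6 groups, and Slc8a1 in 5 groups. Among all named genes, 1.74% shared the lowest array of Pln in 6 groups and 7.43% in 5. These arrays were male sham replicate 1, male CLP replicate 1, male CLP plus landiolol replicate 5, female sham replicate 3, female CLP replicate 5 and female CLP plus landiolol replicate 2. Their share of probes well above background was 50.3 to 56.3% and ranked lowest of its group in 3 of the 6 groups, and its part in the shared low values was not tested.

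Other genes of the calcium system were read from a list of 89, of which 88 had a probe and 69 were tested in at least 1 sex. In males 12 of 69 passed for CLP vs sham, 2 higher and 10 lower, and in females 6 of 68, 1 higher and 5 lower (9.37 and 4.32% of all genes). Jph2, junctophilin-2, which holds the L-type channel close to the ryanodine receptor, was 15.56 to 15.89 in male sham and 13.68 to 14.68 in male CLP hearts. It fell in both sexes, -1.68 (SE 0.19, adjusted p = 5.2e-05) in males and -1.33 (SE 0.23, adjusted p = 0.0022) in females. CLP plus landiolol minus CLP was 0.09 (SE 0.19, adjusted p = 0.84) and -0.07 (SE 0.22, adjusted p = 0.96). Sypl2, mitsugumin-29 of the same junction, fell in males, -2.18 (SE 0.36, adjusted p = 0.00088), and was at -0.53 (SE 0.43, adjusted p = 0.52) in females.

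Chp2, which resembles the calcineurin B subunit, was well above background on 5 male and 4 female sham arrays and on 0 of the 5 CLP arrays of each sex. On the processed intensity, CLP hearts were lower than sham hearts by a bound of 2.26-fold in males and 2.57-fold in females (limma adjusted p = 0.00076 and 0.005). Under landiolol, Chp2 was higher than in CLP alone in males by a bound of 1.86-fold (adjusted p = 0.025). That call was lost under 5 of 14 other settings, and the difference went down to 0.16 among them. In the deposited table Chp2 differed between CLP and sham by only -0.27 (adjusted p = 0.14) in males and -0.30 (adjusted p = 0.22) in females, less than these bounds. In females Chp2 passed the filter through the sham group alone, so its fall from sham is not independent of the filter. It is among the 5 genes counted as lower in females. The female call was lost under 6 of 14 other settings. Without 1 array it was tested in 12 fits and lost in 3, those without female CLP replicates 2, 3 or 5 (highest adjusted p = 0.013). Myoz1, calsarcin-2, which binds calcineurin at the Z-disc, fell by 1.37 (SE 0.22, adjusted p = 0.00062) on the log2 scale in males and by 0.93 (SE 0.18, adjusted p = 0.0047) in females. The female call of Myoz1 was lost in 6 of 16 fits without 1 array, those without sham replicates 1, 3, 4 and 5 and CLP replicates 4 and 5, with a highest adjusted p of 0.014. The calcium-binding protein S100a6 fell in males, -1.39 (SE 0.26, adjusted p = 0.002), and in females it was at -0.70 (SE 0.23, adjusted p = 0.072).

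S100a8 and S100a9 form calprotectin, a calcium-binding complex of neutrophils and monocytes, and were the genes of this list that rose. In males S100a8 was well above background on 0 of 5 sham arrays and on all 5 CLP arrays, and CLP was at least 11.3-fold higher (adjusted p = 2.7e-05). In females it was well above background on 1 of 5 sham arrays and on all CLP arrays, so the size of its rise (adjusted p = 0.00019) is not given. With normexp background correction the differences of S100a8 were 1.232 in males and 1.402 in females, and they passed. The male value lies below the bound, so the size of the rise depends on the background correction. S100a9 rose in males, 2.50 (SE 0.48, adjusted p = 0.0024), a call lost with normexp (1.13, adjusted p = 0.031), and was at 1.95 (SE 0.54, adjusted p = 0.033) in females. Of 5 neutrophil genes only S100a8 and S100a9 passed the filter, so the others were not tested. Csf3r and Cxcr2 were not well above background in either sham group. In each CLP group, Mpo alone of the 5 was not well above background.

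**Figure D5:**
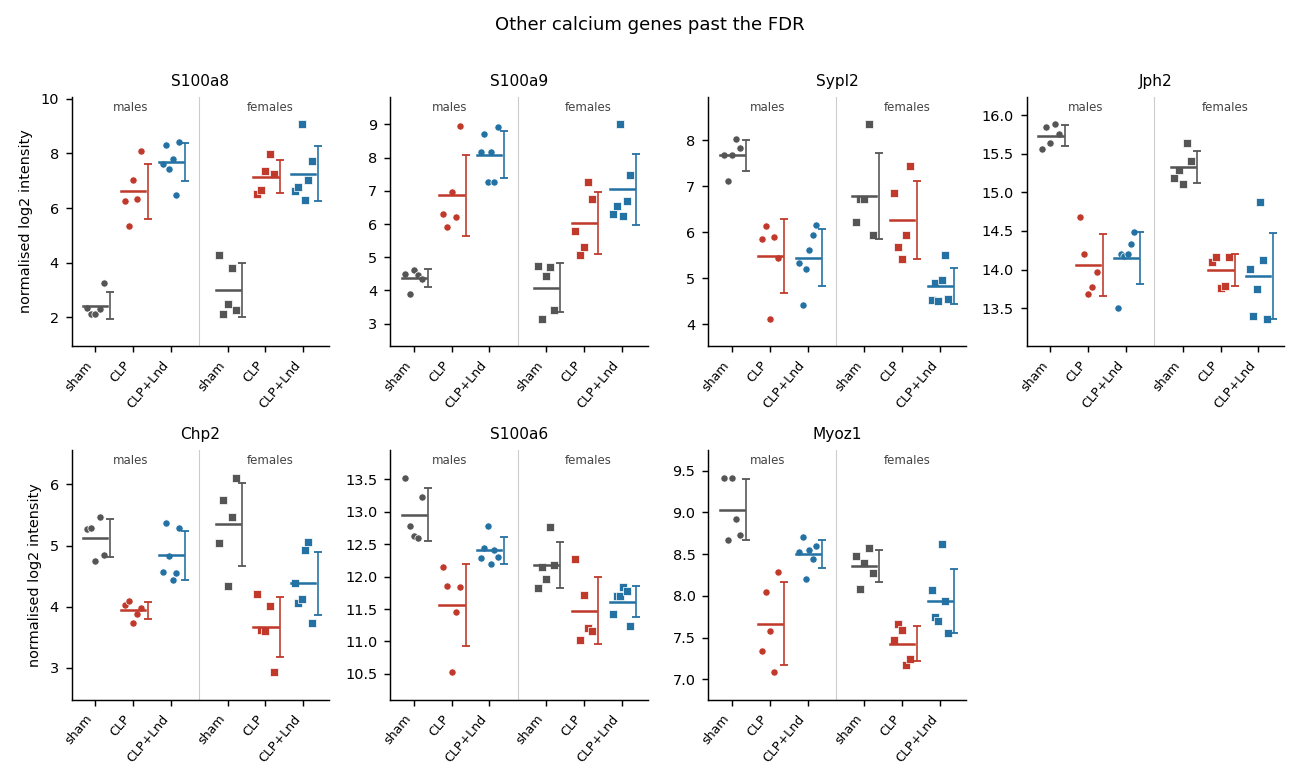
Normalised log2 intensity (y axes, a scale for each gene) of 7 other calcium genes with large changes past the FDR. Points are rats (circles male, squares female), lines are means and bars are SD. S100a8 and S100a9 lie higher in CLP than in sham, and Jph2, Chp2 and Myoz1 lie lower in CLP in both sexes, with Chp2 in CLP and male S100a8 in sham not well above background. Female Chp2 passed the filter through sham alone.

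Of the same list, 4 of 69 genes in males passed between CLP plus landiolol and CLP, all higher, and none of 68 passed in females with limma (1.82 and 0.108% of all genes passed). In females 9 of the 68 had an unadjusted p under 0.05 (13.2%, against 9.70% of all genes). Beside Chp2 the 4 male genes were Nfatc2, a transcription factor that calcineurin activates, 1.001 (SE 0.18, adjusted p = 0.011), Akap6, the scaffold mAKAP that holds calcineurin and ryanodine receptors at the nuclear envelope, 0.57 (SE 0.12, adjusted p = 0.029), and Ahnak, a large protein that binds L-type channel β subunits, 0.52 (SE 0.12, adjusted p = 0.042). The last 3 genes were named after their values were seen. Nfatc2 was 8.53 to 9.23 in male CLP and 9.74 to 10.13 in male CLP plus landiolol hearts, without overlap. Akap6 had fallen in CLP vs sham in both sexes, -1.12 (SE 0.13, adjusted p = 5.0e-05) in males and -1.19 (SE 0.16, adjusted p = 0.00035) in females. Without 1 array, the landiolol call was kept in all 16 fits for Nfatc2, but with the mean of its probes the difference was 0.46 (adjusted p = 0.31) and did not pass. It was lost in 6 fits each for Chp2 and Akap6, without male CLP replicates 3, 4 or 5 or CLP plus landiolol replicates 2 or 6, and further without CLP plus landiolol replicate 3 for Chp2 and replicate 4 for Akap6. For Ahnak it was lost in 11 fits, all but those without male sham replicates 1, 4 and 5, CLP replicate 1 and CLP plus landiolol replicate 4.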

How the data were processed

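Total RNA of the left ventricle, with an RNA integrity number above 8, was labelled from 200 ng and hybridised to 1-colour Agilent arrays, 1 for each of 32 rats. The authors deposited Agilent Feature Extraction 10.5 output, in which the processed signal intensity of a spot is background-subtracted, and a sheet of log2 values for 38875 spots. The deposited log2 sheet correlated with the log2 processed intensity at 0.994 or more, with column medians between 9.62 and 9.71, and its constant offset is unknown. It served as an alternative.

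Here, outlier-flagged spots were left out (213 values of a probe on an array), spots of the same probe were averaged on the log2 scale, and quantile normalisation was run on the 16 arrays of each sex. A probe was kept if 80% or more of the arrays in any group read it well above background, which left 25866 in males and 25395 in females. Differences were tested over all kept probes with limma 3.58.1 under R 4.3.3 (eBayes without a trend, the 16 arrays of a sex in the fit, Benjamini-Hochberg adjustment), at an FDR of 1% for both comparisons with sham and of 5% between CLP plus landiolol and CLP. The sexes were compared by an interaction on 32 jointly normalised arrays at 5%. Files were read with data.table (version 1.17.8) and jsonlite (version 2.0.0), and scripts were tested on simulated data. Where no array of a group read a probe well above background, the fold is a bound, set by the lowest signal well above background on each array or the probe's own if higher. Such a bound holds for the processed intensity only, and other settings can give smaller differences. Array number limits the precision, and p-values measure the spread between rats.

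Alternatives were other scaling, background correction, filters, terms for slide, row and day, array weights, SAM (the test the methods name) with 100 permutations, and leaving out each array. The members and gene lists were chosen with earlier results of these data known. Array values were given for genes past the FDR in a comparison with sham or of landiolol and for the central genes of the cycle, and at most 8 other calcium genes past the FDR were named by size. A gene of that list and a marker gene are not reported here.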

Additional observations from a re-analysis of the deposited data

Results flagged for a closer look

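Of 171 groups of 5 or 6 arrays examined gene by gene, 8 held 1 array far from the others of its group, where chance gives about 5%. In log2 intensity, Atp2a2 was 16.91 in male CLP replicate 1, with the nearest array at 17.12, and Mef2a was 10.82 in male CLP replicate 3. Cacna1c was low at 11.49 in female sham replicate 2 and at 11.54 in female CLP replicate 1. Hrc was low at 14.58 in male CLP plus landiolol replicate 1 and at 14.30 in female CLP plus landiolol replicate 2. Jph2 was low at 13.51 in male CLP plus landiolol replicate 1. Trpc1 was high at 9.60 in female CLP replicate 1. Of 29 genes tested, 0 differed between the sexes by the interaction term with limma.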

How the results depend on the processing

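No difference that passed its FDR changed sign among the alternatives run. Differences that had not passed did cross 0, among them Camk2d for CLP vs sham in females (-0.30 with a term for the slide row and -0.23 without female CLP replicate 5, against 0.01), Ryr2 for CLP plus landiolol vs CLP in females (-0.22 with array weights, against 0.04) and Cacna1c for the latter in males (-0.17 with the mean of its probes, against 0.12). For CLP vs sham in males, 3 genes were called as reported, 1 (Atp2a3) when only the groups compared were fitted, 4 with SAM (Camk2a and Casq2 added, Hrc lost), 5 with array weights (Camk2a and Sri added), 5 with the mean of a gene's probes (Rcan2 and Slc8a1 added) and 6 at an FDR of 5%. In females the call of 1 became 2 with SAM (Hrc added), 3 at an FDR of 5% (Hrc and Slc8a1 added) and 2 when any probe counted. For CLP plus landiolol vs CLP, 0 became 1 in males with array weights (Atp2a3), the mean of probes (Rcan2) or any probe (Rcan2), and 1 in females with any probe (Rcan2). For CLP plus landiolol vs sham in males, 0 became 1 (Slc8a1) with array weights, the mean of probes or SAM, and 3 at an FDR of 5%. In females, 2 became 1 (Cacna2d2) with normexp, the raw mean signal, only the groups compared or the mean of probes, 4 with a trended prior, the deposited table or SAM, 5 with array weights, 6 at an FDR of 5%, and 0 with a term for the slide row. The cause of these shifts was not tested, beyond the looser FDR and the fewer samples fitted. Leaving out 1 array gave 1 to 4 calls for CLP vs sham in males and 1 to 2 in females, 0 to 1 for CLP plus landiolol vs sham in males and 0 to 3 in females, and 0 for CLP plus landiolol vs CLP. The lowest male count came without male sham replicates 2 or 4 or CLP replicates 2, 4 or 5. For single genes, 1159 values stayed called or not called as in the main fit under other settings, 54 lost a call, 3 gained a call and 3 without a call moved. When 1 array was left out, 1201 stayed as in the main fit, 105 lost a call, 1 gained a call and 1 without a call moved. Signal over background limits Camk2a, Camk2b, Cacna1d, Chp2 and S100a8, which have only bounds or few measured arrays in some groups. The size of the upstream Rcan2 difference also depended on the background correction. With normexp, CLP minus sham went down to 1.34 in males and 1.01 in females. No paired analysis was possible because each rat belonged to 1 group and gave 1 array. The replicate numbers used here only name the rats of a group.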

Other observations

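Further genes of the wider calcium list differed between CLP plus landiolol and sham hearts without being among those described above. Trpc6, a cation channel opened by diacylglycerol, was higher in males, 1.19 (SE 0.21, adjusted p = 0.0024). Cib1, a calcium-binding protein that can anchor calcineurin at the membrane, was higher in males, 0.58 (SE 0.11, adjusted p = 0.0047), and in females, 0.67 (SE 0.15, adjusted p = 0.0072). Tmem38a, the TRIC-A potassium channel that balances charge during calcium release, was lower in males, -0.50 (SE 0.11, adjusted p = 0.0069). Srl, sarcalumenin of the reticulum, had fallen in CLP vs sham as well, -0.98 (SE 0.14, adjusted p = 0.00032) in males and -0.98 (SE 0.21, adjusted p = 0.0078) in females. The female call of Srl for CLP was lost in 12 of 16 fits without 1 array, all but those without CLP replicate 1 and CLP plus landiolol replicates 2, 4 and 6 (highest adjusted p = 0.021), and under 4 other settings. These genes were named after their values were seen. All female sham and female CLP plus landiolol arrays lay in different rows of the slides, so that row and group cannot be told apart for the female values.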
